A study of Mus musculus with 3 samples.

Results

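Lef1, Tcf7, Ccr7, Igfbp4, Dapl1, Satb1 and Actn1 are genes that resting, naive T cells of the mouse carry at a high level. These 7 of the 32285 genes in the matrices were taken by their symbols, each of which named 1 row, and were described in blood cells of young mice, aged mice and aged mice given glycyrrhizic acid (GA).

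A naive T cell has left the thymus and has not yet met its antigen; it circulates between blood and lymph nodes and is held in a quiescent state until it is activated. Lef1 and Tcf7 (the TCF1 protein) are related DNA-binding factors of the TCF/LEF family, which set up T cell fate in the thymus and keep naive and self-renewing memory T cells in place, and Satb1 organises chromatin at T cell genes. Ccr7 is the chemokine receptor that brings naive T cells, and also B cells, into lymph nodes, Igfbp4 encodes a secreted protein that binds insulin-like growth factors, and Actn1 encodes an alpha-actinin that crosslinks actin filaments. Dapl1 is named for its likeness to a death-associated protein and is known as a marker of naive T cells. On activation and differentiation to effector or memory cells, most of these transcripts go down.

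Peripheral blood mononuclear cells (PBMCs) of female C57BL/6 mice were measured by droplet single-cell RNA sequencing of 3′ ends, with 1 library for young mice (8 weeks), 1 for aged mice (16 months) and 1 for aged-GA mice, also of 16 months, which were given GA, a saponin of licorice root, into the tail vein (5 mg/kg, repeated every 2 days over 30 days). The methods give the controls saline and the mice different sources, bought when young and reared in the laboratory when aged, so that source and age cannot be told apart, and the study names several mice in each group without stating how their blood was combined in the 1 library. Each value below is a count of UMIs (unique molecular identifiers, one for each RNA molecule that was captured), summed over the cells of a type in a library and scaled to CPM, counts per 1000000 UMIs of the same cells. With 1 library per group no test was possible, a difference between groups cannot be told apart from a difference between libraries, and the 95% intervals given (exact Poisson for levels, exact binomial for shares) cover counting error only.

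After filtering, 8851 young, 10238 aged and 12648 aged-GA cells remained, with a median of 4671, 3810.5 and 4752 UMIs per cell. Few barcodes were shared between any pair of libraries (50 to 62). Cells were placed in types by marker genes that include none of the 7 genes. CD4 T cells carried UMIs of Cd3 genes and Cd4, without Cd8a or Cd8b1, and numbered 966, 445 and 608 in young, aged and aged-GA mice. They were below the UMI limits for regulatory and gamma-delta T cells, so cells with few UMIs of those markers could stay. CD8 T cells carried Cd3 genes and Cd8a or Cd8b1 without Cd4, and numbered 1923, 720 and 1420. The constant region of the T-cell receptor alpha chain, Trac, which the gates did not use, stood at 665 to 668 CPM in the CD4 T cells and at 375 to 450.2 CPM in the CD8 T cells of the 3 libraries, against 3.3 to 5.4 CPM in B cells. Although the labels call the samples mononuclear, 726 aged and 441 aged-GA cells carried neutrophil genes. Another 471 to 1471 cells per library had haemoglobin at 50% or more of their UMIs and are called red cells here. In the aged library these had a median of 1142 genes and 67.0% haemoglobin, against 247 genes and 92.8% in young and 255 genes and 92.2% in aged-GA mice. Whether all were red cells was not tested.

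The genes lie on 5 chromosomes of the mouse genome (build GRCm38, GENCODE gene bounds). Lef1 is at chr3:131110471-131224356 on the plus strand, Tcf7 at chr11:52252371-52283014 on the minus strand, Igfbp4 at chr11:99041244-99054392 (plus), Ccr7 at chr11:99144196-99155077 (minus), Dapl1 at chr2:59484653-59505020 (plus), Satb1 at chr17:51736187-51833290 (minus) and Actn1 at chr12:80167547-80260371 (minus). Igfbp4 and Ccr7 are close together: 91.5 kb separate them in the RefSeq annotation, with only Tns4 between. Tns4 had no UMI in CD4 or CD8 T cells of any library.

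Promoter windows of 300 bases (250 before the start of the transcript and 50 after it, from RefSeq, build GRCm38.p6) were at hand for 6 of the 7 genes, 14 windows in all. They are shown for Dapl1 and Igfbp4, picked after their values were seen. In CD4 T cells in which no UMI of memory genes was found, Dapl1 had the lowest and Igfbp4 the highest log2 ratio of the 7, aged over young. Actn1 lay beside Igfbp4 there, at 0.91 against 0.92. Capitals mark the letters of a motif that was searched on both strands: GTAAACA (FOXO) in Dapl1 and CCACACCC (KLF) in Igfbp4, which is read there on the opposite strand.
Dapl1 (chr2:59484403-59484702, plus strand): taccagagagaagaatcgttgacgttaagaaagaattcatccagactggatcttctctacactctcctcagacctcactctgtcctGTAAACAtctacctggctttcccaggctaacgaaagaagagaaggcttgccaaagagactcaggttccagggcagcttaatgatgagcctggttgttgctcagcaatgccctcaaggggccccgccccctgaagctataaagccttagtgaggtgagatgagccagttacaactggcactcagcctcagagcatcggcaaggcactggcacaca
Igfbp4 (chr11:99040994-99041293, plus strand): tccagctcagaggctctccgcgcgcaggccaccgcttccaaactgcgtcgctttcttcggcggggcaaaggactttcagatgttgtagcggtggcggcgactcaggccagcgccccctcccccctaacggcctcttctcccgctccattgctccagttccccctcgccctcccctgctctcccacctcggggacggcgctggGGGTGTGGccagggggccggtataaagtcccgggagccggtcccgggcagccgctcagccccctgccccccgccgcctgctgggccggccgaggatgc
The GC content of these windows was 51.0% for Dapl1 and 71.3% for Igfbp4, where the median of all 32851 windows was 52.7%. GTAAACA was found in 3.65% and CCACACCC in 3.56% of all windows, and each in 2 of the 14 windows of the 7 genes. The TCF/LEF letters CTTTGAT were in none of the 14 windows and in 3.73% of all. The related letters CTTTGTT, which SOX factors also bind, were in 2 overlapping windows of Satb1 and in 5.85% of all. ETS (CAGGAAGT) was found in 2 of the 14 and 3.33% of all windows, and RUNX (TGTGGTT) in none of the 14 and 5.27% of all. A match is only a description of the letters.

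Lef1 and Tcf7 were high in T cells and low in NK cells, Igfbp4 and Dapl1 were near 0 in B, NK and myeloid cells, and Ccr7, Satb1 and Actn1 were each also high in another blood cell type. Lef1 stood at 325 to 768 CPM over CD4 and CD8 T cells, at 46.7 to 62.6 CPM in NK cells and at 7.36 to 10.6 CPM in B cells. Tcf7 stood at 402 to 735 CPM, 42.3 to 52.4 CPM and 3.76 to 7.33 CPM in the same cells. Igfbp4 was at 145 to 542 CPM in CD4 and CD8 T cells and at or below 2.69 CPM in B and NK cells. Dapl1 was at 54.9 to 421 CPM in the T cells and at or below 2.23 CPM in B and NK cells. In classical and nonclassical monocytes of the aged and aged-GA libraries none of the 7 genes passed 21.8 CPM.

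**Figure D1:**
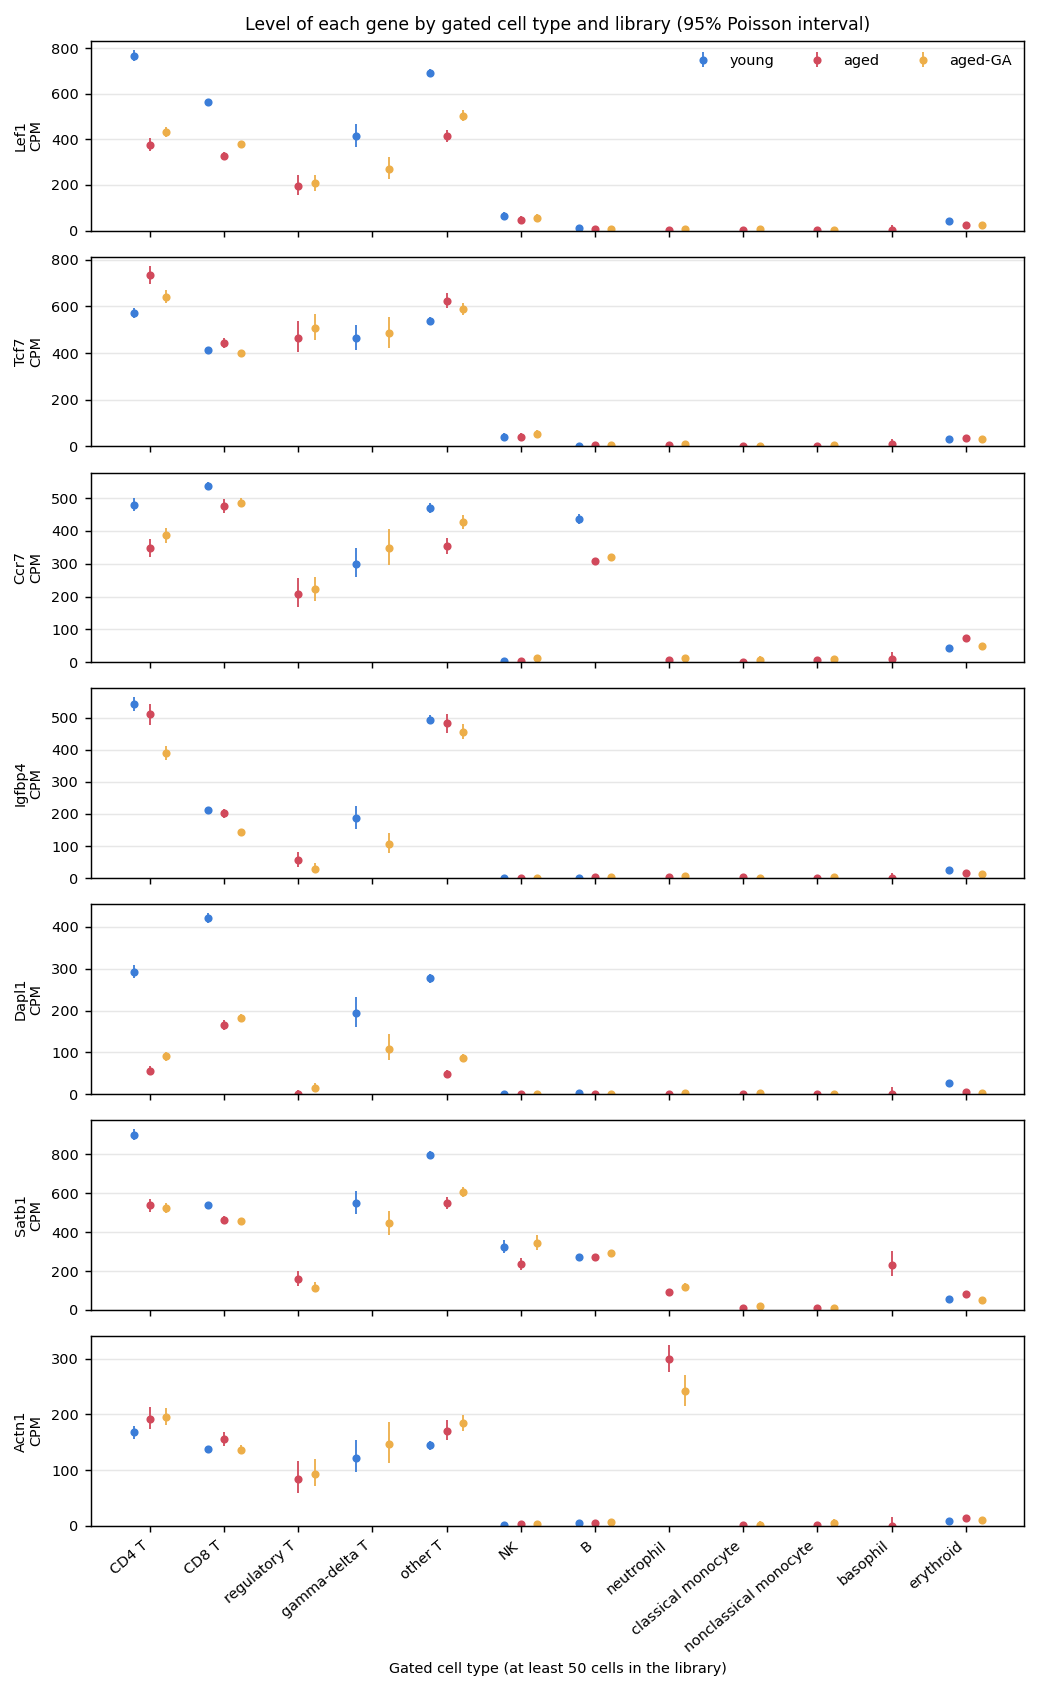
Level of each of the 7 genes (CPM of summed UMIs, linear axis from 0) in every gated cell type with at least 50 cells; points are the 3 libraries and bars the exact Poisson 95% intervals. Ccr7 and Satb1 are also high in B cells, Satb1 in NK cells, and Actn1 is highest in neutrophils.

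Ccr7 in B cells measured 436 CPM, 308 and 322 in young, aged and aged-GA mice, and its range over the libraries overlapped that of CD4 T cells (347.0 to 480 CPM). Satb1 in B cells measured 274, 272 and 294 CPM, and in NK cells 325, 233 and 345 CPM, with overlapping ranges of these cell types. Satb1 was also found in the 92 basophils of the aged library, at 232 CPM (173 to 303), and in neutrophils at 93.1 CPM in aged and 119 in aged-GA mice. Actn1, whose product anchors the cytoskeleton in many cell types, was at 299 CPM (275 to 324) in aged and 241 (215 to 270.2) in aged-GA neutrophils, above each T cell type, and below 7 CPM in B and NK cells.

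Among the T cells the order of cell types differed from gene to gene. Igfbp4 was higher in CD4 than in CD8 T cells, with 390.1 to 542 against 145 to 214 CPM, and the ranges did not overlap. Tcf7 was also higher in CD4 T cells (570.2 to 735 against 402 to 443 CPM, again without overlap). Ccr7 went the other way within each library, with 480, 347 and 386 CPM in CD4 and 537, 476 and 487 CPM in CD8 T cells of young, aged and aged-GA mice. Dapl1 was likewise higher in CD8 T cells of each library (421 against 293, 165 against 54.9 and 183 against 90.2 CPM). Lef1 was higher in CD4 T cells of each library (768 against 563, 377 against 325 and 432 against 379.6 CPM). So was Satb1 (900.1 against 541, 537 against 463 and 524 against 456 CPM). Over the libraries the ranges of both genes overlapped between CD4 and CD8 T cells.

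Regulatory T cells (83 aged and 121 aged-GA cells, while the young library held 36 and is not given) had Tcf7 at 466 (403 to 536) and 508.5 CPM (456 to 565). The CD8 T cells were at 443 (423 to 464) and 402 (390 to 415), so the intervals were apart in the aged-GA library only. In CD4 T cells Tcf7 was at 735 (697 to 774) and 640.5 CPM (613 to 669), above regulatory T cells with the intervals apart in both libraries. Regulatory T cells also had less of the other genes than CD4 and CD8 T cells of the same library. Their Lef1 was at 197 and 207 CPM, Ccr7 at 209 and 222, Satb1 at 158.5 and 115, and Actn1 at 84.1 and 93.9 CPM. Igfbp4 was at 55.2 and 29.8 CPM. Dapl1 had 0 UMIs in the aged cells, which allows up to 7.21 CPM at 3 counts, and 9 UMIs in the aged-GA cells (13.4 CPM). In gamma-delta T cells (103 young and 73 aged-GA cells) Lef1 stood at 415 and 271 CPM, Tcf7 at 464 and 486, Satb1 at 550.4 and 444, and Dapl1 at 194 and 109 CPM.

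Most UMIs of Dapl1 came from cells in the T gates, 89.0% of those in kept young cells, 74.7% in aged and 73.0% in aged-GA cells. For Igfbp4 the shares were 88.7, 75.7 and 68.6%. For Satb1 they were 75.4, 36.9 and 38.2% and for Ccr7 67.6, 34.6 and 38.2%, as B cells held 32.9% of the aged Satb1 UMIs and 42.4% of the aged Ccr7 UMIs. Cells that carried markers of more than 1 type, and were left out as mixed, held 6.13 to 10.7% of each gene in young, 13.1 to 19.4% in aged and 18.1 to 24.7% in aged-GA mice.

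Age was the first comparison. In CD4 T cells of the aged library, Dapl1, Lef1 and Satb1 were lower than in the young library by 1.5-fold or more, Ccr7 was lower by less, Igfbp4 differed by less than its counting error, and Tcf7 was higher. Beside these values, the median log2 ratio of the 5494 genes counted (100 or more UMIs in the young and aged cells together) was 0.33, so a gene at its young level lies below most genes.

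Lef1 in CD4 T cells measured 768 CPM (743 to 794), 377 (350.3 to 406) and 432 (410 to 456) in young, aged and aged-GA mice. Tcf7, its relative, measured 570.2 (549 to 592), 735 (697 to 774) and 640.5 (613 to 669) CPM. The pair therefore stood in opposite order, with Lef1 highest and Tcf7 lowest in the young library. Satb1 measured 900.1 (873 to 928), 537 (504 to 571) and 524 (498 to 550) CPM, high in the young library alone. On the log2 scale, aged over young, Lef1 was at -1.02 (-1.14 to -0.91), Satb1 at -0.74 (-0.85 to -0.65) and Tcf7 at 0.37 (0.27 to 0.46). Among all genes counted, Lef1 lay at the 0.965 percentile and Tcf7 at the 53.5 percentile. Tcf7 thus differed about as much as the median gene (0.33). Ratios carry a pseudocount of 1 CPM and their exact conditional intervals none.

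Ccr7 in CD4 T cells measured 480 CPM (460 to 500), 347.0 (321 to 374) and 386 (365 to 409) in young, aged and aged-GA mice, and aged over young its ratio was -0.47 (-0.59 to -0.34). Igfbp4 measured 542 (521 to 563), 510.1 (479 to 543) and 390.1 (368 to 413) CPM, and its aged over young ratio was -0.09 (-0.19 to 0.02). Dapl1 measured 293 (277 to 308), 54.9 (44.9 to 66.4) and 90.2 (80.0 to 101) CPM. Its ratio of -2.39 (-2.71 to -2.13) was the lowest of the 7 genes and lay at the 0.0364 percentile of all genes counted. Actn1, at 168, 192 and 196 CPM, had a ratio of 0.20 (0.02 to 0.38), which became -0.012 where haemoglobin, mitochondrial, ribosomal protein and immunoglobulin genes were left out of the denominator and -0.18 under stricter gates.

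Of the 7 genes, 3 were lower by 1.5-fold or more in aged CD4 T cells, where 3.29% of all genes were, and 0 were higher, where 27.2% were. At a limit of 2-fold, 2 were lower (Dapl1 and Lef1), where 1.02% of all genes were. The median of the 7 was -0.47. The CD4 T cells of the libraries also differed in other ways. Ribosomal protein genes took 39.8, 32.4 and 32.5% and mitochondrial genes 5.01, 3.02 and 4.11% of their UMIs in young, aged and aged-GA mice. All 7 myeloid marker genes had UMIs in each library, at 74.3, 469 and 266 CPM in sum, with Lyz2 at 0.63, 98.8 and 30.4 CPM, and the 5 red cell genes were at 1003, 8033 and 6253 CPM. Their part in the ratios was not tested.

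**Figure D2:**
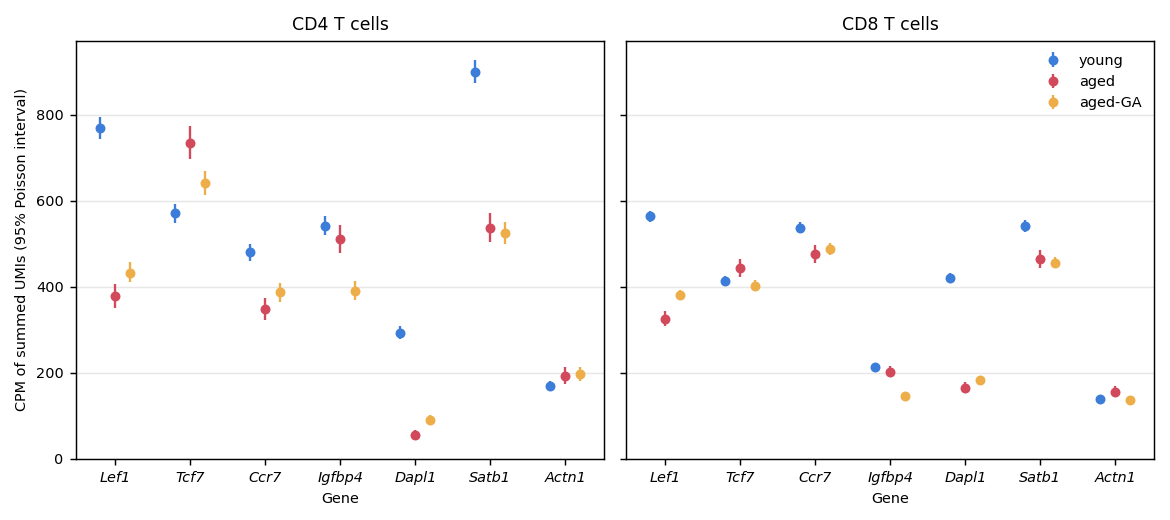
Levels of the 7 genes (CPM, linear axis from 0) in CD4 T cells (left) and CD8 T cells (right) of the 3 libraries, with exact Poisson 95% intervals. Lef1 and Dapl1 are highest in young mice in both cell types, Satb1 above all in CD4 T cells, and Tcf7 is higher in aged than in young mice, an order that flips in CD8 T cells (-0.076) with the reduced denominator.

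CD8 T cells showed the same uneven pattern with smaller differences. Lef1 measured 563 CPM (549.7 to 577), 325 (308 to 343) and 379.6 (368 to 392) in young, aged and aged-GA mice. Tcf7 measured 413 (401 to 424), 443 (423 to 464) and 402 (390 to 415) CPM. Lef1 was again highest in the young library, and Tcf7 in the aged one. Dapl1, which started from a higher level than in CD4 T cells, measured 421 (409 to 433), 165 (152 to 177) and 183 (174 to 191) CPM. Satb1 measured 541, 463 and 456 CPM and Ccr7 537, 476 and 487 CPM, both highest in young mice by a narrow margin. Igfbp4 measured 214, 202 and 145 CPM and Actn1 137, 156 and 137 CPM.

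Aged over young, the log2 ratios in CD8 T cells were -0.79 (-0.88 to -0.71) for Lef1, -1.35 (-1.47 to -1.24) for Dapl1, -0.22 (-0.30 to -0.15) for Satb1, -0.17 (-0.25 to -0.10) for Ccr7 and -0.08 (-0.20 to 0.03) for Igfbp4. Those of Tcf7, 0.10 (0.03 to 0.18), and Actn1, 0.18 (0.05 to 0.31), had the opposite sign, at -0.076 and -0.0012, with the reduced denominator. Tcf7 lay at the 31.5 percentile of the genes counted, below the median gene. Of the 7 genes, 2 were lower by 1.5-fold or more, where 2.73% of 7570 genes were, and 0 were higher, where 23.8% were. At 2-fold, 1 was lower (Dapl1), where 0.766% of genes were. The median of the 7 was -0.17 and that of all genes 0.30. Beside this, the 7 myeloid genes stood at 87.5, 417 and 245 CPM in sum in the CD8 T cells of young, aged and aged-GA mice, and the ribosomal protein genes took 43.5, 38.0 and 39.0% of their UMIs.

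T cells without a UMI of Cd4 or Cd8 genes (2031, 547 and 745 cells) gave levels of Lef1 and Dapl1 near those of the CD4 gate. Lef1 measured 689.9 CPM in the first, 413 in the second and 504 in the third library, and Dapl1 277, 47.5 and 86.6 CPM. Of the 7 genes 2 were lower with age by 1.5-fold or more, Dapl1 at -2.52 (-2.84 to -2.26) and Lef1 at -0.74 (-0.84 to -0.64), where 2.7% of 6813 genes were, and 0 were higher, where 33.1% were. Aged-GA over aged, Dapl1 was at 0.85 (0.54 to 1.20), the 1 gene of the 7 past 1.5-fold, where 1.05% of 5626 genes were higher and 2.47% lower. Lef1 was at 0.29 (0.17 to 0.41), Ccr7 at 0.27 (0.14 to 0.40) and Satb1 at 0.15 (0.04 to 0.25). Igfbp4, at -0.08 (-0.19 to 0.03), Tcf7, at -0.08 (-0.18 to 0.02), and Actn1, at 0.11 (-0.07 to 0.30), differed by less than their counting error. Igfbp4 and Tcf7 were thus not clearly lower here, unlike in the CD4 gate.

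The number of Tcf7 UMIs per Lef1 UMI does not depend on how the libraries were scaled. In CD4 T cells it was 0.742 (0.706 to 0.780), 1.95 (1.78 to 2.13) and 1.48 (1.38 to 1.59) in young, aged and aged-GA mice. In CD8 T cells it was 0.733 (0.706 to 0.760), 1.36 (1.27 to 1.46) and 1.06 (1.01 to 1.11). Young T cells thus had the lowest ratio and aged T cells the highest, with the aged-GA library between them in both cell types and no overlap of the counting intervals. The T cells without a UMI of Cd4 or Cd8 genes held 0.779, 1.51 and 1.17 Tcf7 UMIs per Lef1 UMI. Since both genes were counted at their 3′ ends by the same chemistry, the ratio compares libraries and is not a ratio of transcript numbers.

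GA was the second comparison, aged-GA over aged, which shares the aged library with the comparison of age. Dapl1 was higher in aged-GA CD4 T cells, Lef1 was higher and Igfbp4 and Tcf7 were lower in both cell types by less than 1.5-fold, and Satb1 was level. In CD4 T cells the log2 ratios were 0.71 (0.39 to 1.06) for Dapl1, on 105 aged and 279 aged-GA UMIs, 0.20 (0.07 to 0.33) for Lef1 and 0.15 (0.02 to 0.29) for Ccr7. They were -0.39 (-0.51 to -0.26) for Igfbp4 and -0.20 (-0.30 to -0.10) for Tcf7. Satb1, at -0.04 (-0.15 to 0.08), and Actn1, at 0.02 (-0.16 to 0.22), differed by less than their counting error.

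Of the 7 genes, 1 was higher by 1.5-fold or more in CD4 T cells, where 1.37% of 5267 genes were, and 0 were lower, where 1.59% were. With each cell thinned to 1000 UMIs the ratio of Dapl1 was 0.23 and no gene passed 1.5-fold. Lef1 was then found in 28.1% of aged and 25.7% of aged-GA CD4 T cells, and in 47.2 and 50.2% with cells thinned to 2000 UMIs. In CD8 T cells Lef1 was at 0.22 (0.13 to 0.31), Dapl1 at 0.15 (0.02 to 0.28), Igfbp4 at -0.48 (-0.61 to -0.36), Actn1 at -0.18 (-0.32 to -0.05) and Tcf7 at -0.14 (-0.22 to -0.06). Ccr7, at 0.03 (-0.04 to 0.11), and Satb1, at -0.02 (-0.10 to 0.05), were level. There 0 of the 7 genes passed 1.5-fold in either direction, where 1.75% of 7716 genes were lower and 1.02% higher. Median ratios of all genes were -0.03 in CD4 and -0.05 in CD8 T cells. Beside this, the 7 B cell marker genes stood at 344 CPM in sum in aged and 496 in aged-GA CD4 T cells and at 320.5 and 557 CPM in the CD8 T cells, and their part in the ratios was not tested.

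A level summed over a gate does not tell a smaller share of naive cells from a lower level in each of them. T cells were therefore divided by 10 genes of memory and effector cells, none of them a member of the 7: Ccl5, Cxcr3, Itgb1, Il2rb, Eomes, Tbx21, Gzmk, Maf, S100a4 and Nkg7. Cells with 0 UMIs of these were called unmarked and cells with 2 or more memory-marked. In CD4 T cells, unmarked cells made up 76.0% (73.2 to 78.7%), 29.0% (24.8 to 33.4%) and 24.0% (20.7 to 27.6%) of young, aged and aged-GA cells, and memory-marked cells 8.80, 57.3 and 57.2%. After thinning to 1000 UMIs the memory-marked shares were 3.52, 34.2 and 35.0%, and the unmarked shares 90.6, 52.6 and 51.5%. The unmarked class thus depends on depth and can hold memory cells in which no such UMI was captured. This limit applies to every value within unmarked cells and to the reweighting below.

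Within each library, memory-marked CD4 T cells held less Lef1, Ccr7, Igfbp4, Dapl1 and Satb1 than unmarked ones, whereas Tcf7 was at a like level in both. Lef1 measured 472 CPM in memory-marked and 792 in unmarked young cells, 206 and 618 in aged, and 226 and 694 in aged-GA cells. Tcf7 measured 605 and 563, 668 and 733, and 625 and 645 CPM in the same order, and the intervals of its 3 ratios all spanned 0. Igfbp4 showed the widest gap of the 7 in aged cells, with 139 CPM in memory-marked and 1096 in unmarked cells, a log2 ratio of -2.96 (-3.24 to -2.71), against 235 and 577 CPM and -1.29 (-1.60 to -1.01) in young cells.

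Compared within unmarked CD4 T cells, the 7 genes differed in direction. Igfbp4 measured 577 CPM, 1096 and 754 in young, aged and aged-GA mice, so that the aged level was the highest, and Actn1 measured 162, 305 and 265 CPM. Aged over young, the ratios were 0.92 (0.79 to 1.06) for Igfbp4 and 0.91 (0.66 to 1.17) for Actn1. Dapl1 was lower, with 308, 120 and 203 CPM and a ratio of -1.35 (-1.73 to -0.998), on 67 aged UMIs, and Lef1 at -0.36 (-0.52 to -0.20) was lower by less than in the whole gate. Satb1, at -0.01 (-0.15 to 0.12), and Ccr7, at 0.08 (-0.10 to 0.26), differed by less than their counting error. Of the 7 genes, 1 was lower and 2 higher by 1.5-fold or more, where 5.28% and 16.2% of 3863 genes were. The median of all genes in this class was 0.18.

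In memory-marked CD4 T cells Igfbp4 had the opposite direction. It measured 235 CPM, 139 and 114 in young, aged and aged-GA mice, with an aged over young ratio of -0.75 (-1.12 to -0.37). Dapl1 measured 239, 25.1 and 33.0 CPM, an aged over young ratio of -3.20 (-3.92 to -2.63) on 27 aged UMIs. Lef1 was at -1.19 (-1.47 to -0.91) and Satb1 at -1.07 (-1.32 to -0.82). Here 4 of the 7 genes were lower by 1.5-fold or more and 0 higher, where 4.64% and 16.6% of 2110 genes were. The median of all genes was 0.16. The young memory-marked cells numbered 85.

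Igfbp4 was thus near-equal in the whole CD4 gates, and in the aged library higher in the unmarked and lower in the memory-marked class, with a smaller share of unmarked cells. The memory-marked classes may not hold like cells. Dapl1 was at 239 CPM in memory-marked and 308 in unmarked young cells, against 25.1 and 120 in aged cells. Whether this shifts the ratios was not tested. With the aged cells reweighted to the young shares of UMIs over unmarked, intermediate and memory-marked cells, the aged level of Igfbp4 would be 956 CPM, a ratio of 0.82 in place of -0.09. Reweighting moved Ccr7 from -0.47 to 0.01 and Satb1 from -0.74 to -0.11. It moved Lef1 from -1.02 to -0.43 and Dapl1 from -2.39 to -1.56, so that both stayed below the young level. Tcf7 went from 0.37 to 0.43 and Actn1 from 0.20 to 0.71.

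**Figure D3:**
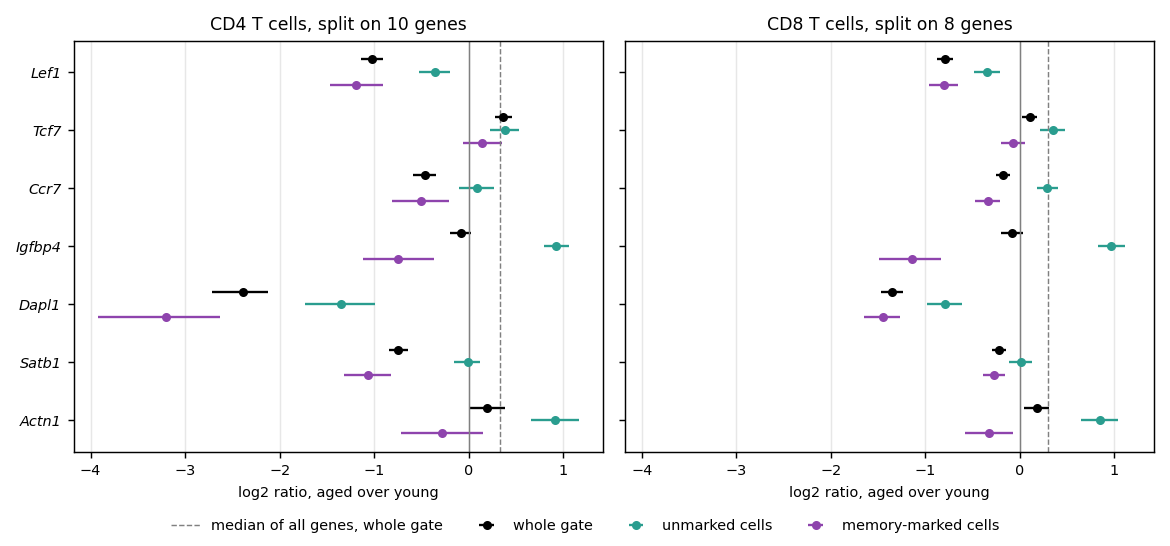
Log2 ratios, aged over young, of the 7 genes in all cells of a gate (black), unmarked cells (green) and memory-marked cells (purple), with exact 95% counting intervals; CD4 T cells (left) are divided by 10 genes and CD8 T cells (right) by 8, and the dashed line is the median of all genes in the whole gate. Igfbp4 is near 0 in the whole gate, above 0.9 in unmarked and below -0.7 in memory-marked cells of both types, where the 10 genes give -0.17 in CD8 T cells.

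In CD8 T cells the 10 genes do not separate memory cells, since Nkg7 was found in 77.5% and Il2rb in 42.8% of young cells, and 71.5% of young CD8 T cells counted as memory-marked. They were therefore divided by the other 8 genes, a choice made after the data were seen. Unmarked cells then made up 67.1%, 25.0% and 20.5% of young, aged and aged-GA CD8 T cells, and memory-marked cells 18.5, 61.5 and 64.2%. By the 10 genes only 21 aged CD8 T cells were unmarked.

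Divided in this way, unmarked CD8 T cells gave the same order of genes as unmarked CD4 T cells. Igfbp4 measured 263 CPM, 516 and 357 in young, aged and aged-GA cells and Actn1 147, 264 and 237 CPM. Aged over young, Igfbp4 was at 0.97 (0.83 to 1.11), Actn1 at 0.84 (0.65 to 1.04), Tcf7 at 0.35 (0.21 to 0.48) and Ccr7 at 0.29 (0.18 to 0.40). Satb1 was level at 0.01 (-0.12 to 0.13). Lef1 was at -0.35 (-0.48 to -0.22) and Dapl1 at -0.79 (-0.98 to -0.62), with Dapl1 at 446, 257 and 274 CPM. Of the 7, 1 was lower and 2 higher by 1.5-fold or more, where 4.24% and 16.6% of 5736 genes were. The median of all genes in this class was 0.18, so that Satb1 lay below the median gene.

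Memory-marked CD8 T cells had 3 of the 7 genes lower by 1.5-fold or more, where 2.12% of 4848 genes were, and 0 higher, where 25.0% were. The median of all genes in this class was 0.30. The lower genes were Dapl1, at -1.45 (-1.65 to -1.26), Igfbp4, at -1.14 (-1.50 to -0.83), and Lef1, at -0.81 (-0.96 to -0.66). Divided by the 10 genes, Igfbp4 in memory-marked CD8 T cells was at -0.17 (-0.29 to -0.04) and not past 1.5-fold. Divided by the 8 genes, Igfbp4 measured 97.7 CPM, 43.7 and 46.9 in young, aged and aged-GA memory-marked cells. The log2 ratio of memory-marked over unmarked aged cells was then -3.53 (-3.87 to -3.26). Unlike in CD4 T cells, Tcf7 was lower in memory-marked than in unmarked CD8 T cells. Its ratios were -0.12 (-0.22 to -0.02), -0.53 (-0.69 to -0.38) and -0.38 (-0.49 to -0.27) in young, aged and aged-GA mice. With the young shares of UMIs, the aged over young ratios of the CD8 gate would be 0.82 for Igfbp4, 0.22 for Ccr7, -0.05 for Satb1, -0.41 for Lef1 and -0.96 for Dapl1. Over the classes of the 10 genes they would be 0.21, -0.11, -0.12, -0.58 and -1.33, so that Ccr7 has the other sign and Dapl1 stays near its unweighted -1.35.

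In the comparison of GA, the division changed little in CD4 T cells. There unmarked cells made up 29.0% of aged and 24.0% of aged-GA cells, and memory-marked cells 57.3 and 57.2%. In CD8 T cells divided by the 8 genes, unmarked cells held 25.5% of aged and 18.4% of aged-GA UMIs. Reweighted to the aged shares, the CD8 ratio of Igfbp4 went from -0.48 to -0.30 and that of Actn1 from -0.18 to -0.09. Those of Lef1 and Dapl1 went from 0.22 to 0.29 and from 0.15 to 0.21. Over the classes of the 10 genes Igfbp4 stayed at -0.48. Igfbp4 was lower in aged-GA than in aged unmarked cells, at -0.54 (-0.71 to -0.37) in CD4 and -0.53 (-0.70 to -0.37) in CD8 T cells. In memory-marked cells its intervals spanned 0, at -0.29 (-0.61 to 0.02) in CD4 and 0.10 (-0.21 to 0.43) in CD8 T cells divided by the 8 genes. Divided by the 10 genes, memory-marked CD8 T cells had it at -0.41 (-0.55 to -0.28), clear of 0. Dapl1 was at 0.75 (0.33 to 1.19) in unmarked CD4 T cells, from 67 UMIs in 129 aged and 151 UMIs in 146 aged-GA cells. It was the only gene of the 7 past 1.5-fold there, where 1.85% of 1564 genes were higher and 2.05% lower. In the whole CD4 gate, thinned to 1000 UMIs, Dapl1 was found in 4.04% (2.41 to 6.32%) of aged and 4.77% (3.22 to 6.78%) of aged-GA cells. In unmarked CD8 T cells the ratio of Dapl1 was 0.09 (-0.12 to 0.31). Lef1 was at 0.17 (-0.03 to 0.37) in unmarked CD4 and 0.26 (0.11 to 0.41) in unmarked CD8 T cells. In memory-marked CD4 T cells it was at 0.13 (-0.11 to 0.38). In unmarked CD8 T cells 0 of the 7 passed 1.5-fold in either direction, where 1.98% of 3126 genes were lower and 1.73% higher. Memory-marked cells also gave 0 in either direction, among 6 counted in CD4 (2.07% of 3767 genes lower and 1.94% higher) and 7 in CD8 T cells (2.62% of 6705 lower and 1.25% higher). In memory-marked CD8 T cells Lef1, at 0.35 (0.22 to 0.49), Ccr7, at 0.27 (0.15 to 0.38), and Satb1, at 0.11 (0.002 to 0.21), were nevertheless clear of 0. Divided by the 10 genes, Lef1 was at 0.26 (0.17 to 0.36) and Ccr7 at 0.01 (-0.07 to 0.09).

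**Figure D4:**
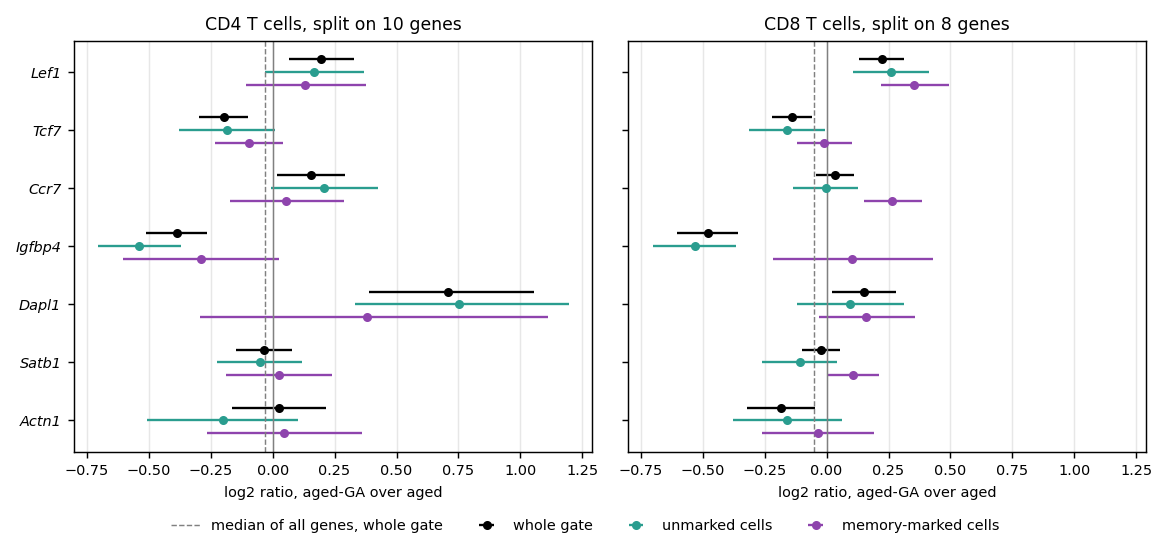
Log2 ratios, aged-GA over aged, drawn as in the plot for age, with the same division of CD4 and CD8 T cells. Igfbp4 lies below 0 in all cells and unmarked cells of both types, Dapl1 above 0.7 in all and unmarked CD4 T cells, and the other genes lie within 0.4 of 0.

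Tcf7 per Lef1 was higher in memory-marked than in unmarked cells of every library. In unmarked CD4 T cells it was 0.711 (0.671 to 0.753), 1.19 (1.02 to 1.37) and 0.930 (0.820 to 1.06) for young, aged and aged-GA mice, and in memory-marked cells 1.28, 3.23 and 2.76. In unmarked CD8 T cells it was 0.676 (0.646 to 0.708), 1.09 (0.969 to 1.24) and 0.818 (0.748 to 0.895). The young value was the lowest and the aged value the highest in each of these classes.

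The number of the 7 genes found per cell was lower in both aged libraries. After thinning every cell to 1000 UMIs, a young CD4 T cell held UMIs of 2.49 of the 7 genes on average, an aged cell 1.84 and an aged-GA cell 1.77. Cells with 3 or more of the 7 made up 48.1% (44.9 to 51.3%), 29.4% (25.2 to 33.9%) and 27.8% (24.3 to 31.5%) of young, aged and aged-GA CD4 T cells. Cells with none made up 4.35% (3.15 to 5.84%), 19.1% (15.6 to 23.1%) and 18.8% (15.7 to 22.1%). In CD8 T cells 3 or more were found in 36.4, 25.8 and 25.7% and none in 8.53, 24.6 and 21.7%. B cells, which carry Ccr7 and Satb1, had 3 or more in 0.0757 to 0.191% of cells.

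**Figure D5:**
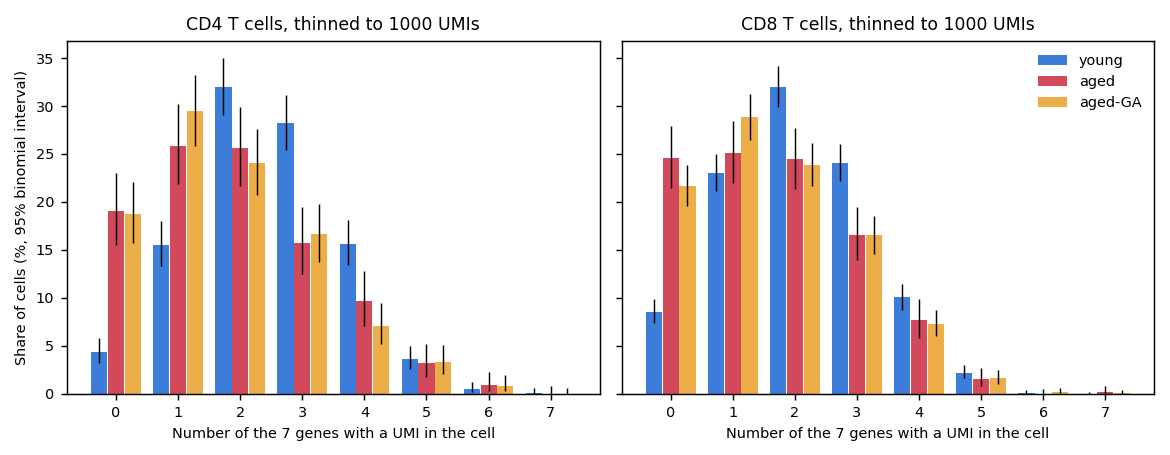
Share of CD4 T cells (left) and CD8 T cells (right) by the number of the 7 genes with a UMI, after each cell was thinned to 1000 UMIs; bars are libraries and error bars exact binomial 95% intervals. The share of cells with none of the 7 is higher in both aged libraries, which lie close together.

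Gene by gene, Lef1 was found in 50.7%, 28.1% and 25.7% of young, aged and aged-GA thinned CD4 T cells (91.5, 65.2 and 67.3% before thinning), against 0.807 to 1.12% of thinned B cells. Dapl1 was found in 19.7, 4.04 and 4.77% (43.2, 9.21 and 14.8% before thinning), against 0 to 0.0892% of B cells. Tcf7 was found in 41.5, 50.3 and 47.5% of the same T cells (89.2, 87.4 and 92.8% before thinning) and in 0.223 to 0.593% of B cells. Median depths were 4766, 4116 and 4765 UMIs in CD4 T cells and 3385, 3057 and 3746.5 in B cells. The share of CD4 T cells with Lef1 or Dapl1 was thus highest in young mice before and after thinning. That with Tcf7 was lowest in young mice only after thinning. In CD8 T cells thinned to 1000 UMIs the share with Tcf7 was 33.1, 37.4 and 29.9%, lowest in aged-GA mice.

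Other genes of the naive and quiescent state, a list of 16 that were all counted, mostly did not share the low level of Lef1 and Dapl1. In CD4 T cells, aged over young, 2 were lower by 1.5-fold or more, Il7r, the receptor of interleukin-7, at -0.66, and Tob1, an inhibitor of proliferation, at -0.62. Another 2 were higher, Gata3 at 0.84 and Bcl2 at 0.63. Of all genes 3.29% were lower and 27.2% higher there, and the list median of 0.12 lay below the all-gene median of 0.33. Klf2, which drives exit into blood, measured 1735, 1492 and 1889 CPM in young, aged and aged-GA mice. In CD8 T cells the median was 0.09, against 0.30 for all genes, with 1 lower, Tob1 at -0.65, and 1 higher, Gata3 at 0.64, where 2.73% and 23.8% of all genes were. Aged-GA over aged, 0 of the 16 passed 1.5-fold in either cell type. Of all genes 1.59% were lower and 1.37% higher there in CD4 T cells, and 1.75% and 1.02% in CD8 T cells. A count of 0 is near these shares.

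Of 17 partners and targets of the TCF/LEF factors, 7 were counted in CD4 T cells, aged over young. Tle3, a co-repressor that binds these factors, was higher at 1.62 (from 30.2 to 95.1 CPM), and Hdac1 at 0.61, and 0 were lower. These 2 of 7 are close to the 27.2% of all genes that were higher. Tle5, a short relative of Tle3, measured 496, 519 and 573 CPM. In CD8 T cells Tle3 was at 1.28 and Bcl9l at 0.71, 2 of 11 counted where 23.8% of all genes were higher, and the median was 0.11. Aged-GA over aged, 0 of the 9 counted in CD4 and 0 of the 11 in CD8 T cells passed 1.5-fold. This is near the shares of all genes, 1.59% lower and 1.37% higher in CD4 and 1.75% and 1.02% in CD8 T cells.

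Of 23 genes of memory and effector cells that the division did not use, most of those counted were higher in aged mice. As counting rests on the UMIs of both libraries together, a gene scarce in young cells could be counted through the aged library alone. Of 13 counted in CD4 T cells, 11 were higher by 1.5-fold or more, where 27.2% of all genes were. They were led by S100a6 at 3.80, Anxa2 at 3.14 and Ahnak at 2.89, and the median of those counted was 2.51. Of 21 counted in CD8 T cells, 20 were higher, where 23.8% of all genes were, led by S100a6 at 4.004, Ifng at 3.02 and Gzmb at 2.86, with a median of 1.92. Aged-GA over aged, the medians were -0.18 and -0.31, with 2 of 15 lower by 1.5-fold or more in CD4 and 4 of 21 in CD8 T cells, where 1.59% and 1.75% of all genes were. In each cell type 1 was higher, Il18rap at 0.66 in CD4 and Gzmm at 0.99 in CD8 T cells, where 1.37% and 1.02% of all genes were. The lowest in CD8 T cells was Gzma, a granule protease, at -1.58.

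Among 11682 genes, those most like each of the 7 were named by Pearson's r of log2(CPM + 1) over 29 points, each a cell type with at least 50 cells in a library. The points share libraries and hold T cells against other cells, so that r mostly describes T cells against the rest. Lef1 was closest to Tcf7 (0.974), and Tcf7 to Bcl11b (0.977), a factor of T cell commitment. Igfbp4 was closest to Nsg2 (0.956), Dapl1 to Gm19261 (0.964), Ccr7 to Gm8369 (0.978), Satb1 to Sept1 (0.908) and Actn1 to Rflnb (0.913). The mean of the 7 was closest to Nsg2 (0.963), Tdrp (0.955) and Dzip1 (0.954). Among the 7 themselves, r ran from 0.550 for Satb1 and Actn1 to 0.974.

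Genes beside the 7 in the genome had levels of their own. Rpl34, before Lef1, was at 4864, 4718 and 4286 CPM in CD4 T cells, and Hadh, after it, at 35.3, 34.0 and 37.5 CPM in young, aged and aged-GA mice. Top2a, before Igfbp4, was at 9.71, 26.7 and 30.1 CPM, and Smarce1, after Ccr7, at 97.1, 87.8 and 92.8 CPM. Pkp4 and Tanc1, on either side of Dapl1, were at 10.6, 17.8 and 18.4 CPM and at 15.0, 12.5 and 16.5 CPM.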

How the data were processed

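UMI counts per gene and barcode, raw and without normalization, are what the authors deposited. They come from Cell Ranger (version 5.0.0 in the file headers, another in the methods) and build mm10 in the submitters' processing notes. Limits for cells were those of the study's methods: a minimum of 200 genes, no more than 90% of the library's largest gene number, and mitochondrial UMIs up to 7.5%. This left 48249945, 53770440 and 75832322 UMIs for young, aged and aged-GA mice.

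Gates used UMIs of marker genes: T cells had 2 or more of Cd3d, Cd3e and Cd3g, and B cells 3 or more of Cd79a, Cd79b and Ms4a1. T cells with 2 or more of Trdc were placed as gamma-delta T cells. Cells with Cd4 and 2 or more of Foxp3, Il2ra and Ikzf2 were placed as regulatory T cells. Cells in gates of different types were left out as mixed, as were cells with 20 to 50% haemoglobin UMIs, and cells above that were called red cells. UMIs were summed per type and library and scaled to CPM. Log2 ratios carry 1 CPM as pseudocount, genes with 100 or more UMIs in both libraries together were counted, and 1.5-fold was the limit for describing a difference. No test was run, as each group is 1 library. The members, gene lists and gates were chosen with earlier results of these data known. Named are the 7 genes, gate and split markers, the 3 highest and 3 lowest genes of a list or fewer, its other members as examples, the 3 nearest in pattern, and neighbours in the genome.

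Doublets were scored with Scrublet in scanpy 1.11.5 per library. Its automatic threshold marked 437 cells of the young, 451 of the aged and 0 of the aged-GA library, so it had not worked in the last, and an alternative left out the 5% of cells with the highest scores in each. Other alternatives were stricter gates, other cell filters, another denominator, thinning, other pseudocounts, a 2-fold limit and other divisions. The interval was checked on counts simulated for CD4 T cells, aged over young, as Poisson draws around the young levels. Over 5157 genes, 95.1% of intervals held the true ratio. Of genes simulated at 0.5 and at 2 times the young level, 91.7% and 96.0% passed 1.5-fold. The interval assumes the same Poisson error, so this checks only how it was computed. Spread between cells was not simulated. Python 3.11.15, numpy 2.4.6, scipy 1.17.1, pandas 2.3.3 and matplotlib 3.10.9 were used.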

Additional observations from a re-analysis of the deposited data

Results flagged for a closer look

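Igfbp4 differed with age in opposite directions in unmarked and memory-marked T cells of the same libraries. Aged over young, it was at 0.92 in unmarked and -0.75 in memory-marked CD4 T cells, and at 0.71 and -0.17 in CD8 T cells divided by the 10 genes. The 0.71 rests on 46 UMIs in 21 aged cells, and these 10 genes do not separate memory cells among CD8 T cells. Divided by the 8 genes, a choice made after the data were seen, the CD8 ratios were 0.97 and -1.14. With 1 library per group the difference between the classes was not tested.

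UMIs of the 7 genes were also found in barcodes that no comparison used, the red cell barcodes with fewer than 200 genes (941 young, 5460 aged and 3812 aged-GA). Per 1000000 UMIs that are not haemoglobin, Lef1 was at 26.5, 26.9 and 45.7 for the young, aged and aged-GA libraries, Tcf7 at 23.8, 46.0 and 64.9, Ccr7 at 18.5, 57.3 and 92.6, Igfbp4 at 29.1, 26.1 and 37.2, and Satb1 at 29.1, 61.7 and 118. In the 2 aged libraries Dapl1 was at 10.4 and 22.3 and Actn1 at 11.3 and 34.0. In the young library Dapl1 and Actn1 had 3 UMIs or fewer there. These levels are below those of CD4 and CD8 T cells for each gene. Their source was not tested.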

How the results depend on the processing

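No paired analysis was possible because each group is 1 library and the labels give no replicate numbers. Leaving out doublets, a minimum of 500 genes, no limit on mitochondrial UMIs, a T gate on receptor constant genes and a pseudocount of 10 CPM changed no count of the 7 genes past 1.5-fold and the direction of no median of the 7. Several of these settings hardly changed the cells, so they could move little. Doublets were 3 young, 0 aged and 0 aged-GA CD4 T cells, and 40, 2 and 1 CD8 T cells. A minimum of 500 genes kept 965, 445 and 608 CD4 T cells, and the receptor gate held 967, 451 and 610. Without haemoglobin, mitochondrial, ribosomal protein and immunoglobulin genes in the denominator, the median of all genes, aged over young, was nearer to 0. It went from 0.33 to 0.12 in CD4 and from 0.30 to 0.13 in CD8 T cells. The median of the 7 genes became -0.68 and -0.35. By 1.5-fold or more, 4 genes in place of 3 were then lower in CD4 T cells, and 2 in CD8 T cells as before. The 3.29% and 2.73% of all genes given above belong to the full denominator, so these counts stand without a share of all genes. Actn1 became -0.012 and -0.0012 and Tcf7 in CD8 T cells -0.076. The CD8 median became -0.30 with cells weighted equally and -0.27 with cells thinned to 1000 UMIs, where the count of genes higher in aged-GA CD4 T cells became 0. At a 2-fold limit the genes lower with age became 2 in CD4 and 1 in CD8 T cells. Under stricter gates Actn1 in CD4 T cells became -0.18. Thinned to 2000 UMIs, cells with 3 or more of the 7 genes made up 84.4, 52.1 and 53.8% of CD4 and 73.6, 49.7 and 53.4% of CD8 T cells in young, aged and aged-GA mice, where deeper cells hold more of the genes by construction. In memory-marked CD4 T cells the median, aged over young, became -1.13 without S100a4 and Ccl5 in the division. Without Nkg7 and Il2rb, an alternative chosen after the data were seen, the median in memory-marked CD8 T cells became -0.34 with age and 0.11, aged-GA over aged. There Tcf7 became -0.070, aged over young, and Igfbp4 0.10 in place of -0.41, aged-GA over aged, and Ccr7 in unmarked CD8 T cells became -0.0037, aged-GA over aged. The cause of these shifts was not tested. In aged CD4 T cells depth is lowest for Dapl1, with 105 UMIs.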
